A study of Mus musculus with 3 samples.

Results

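Bidirectional promoter peaks were the accessible regions that 2 or more protein-coding genes on opposite strands shared at their transcript starts in dopaminergic neurons (DNs) of the mouse midbrain ventral tegmental area (VTA). They were taken from a list of accessible peaks from single-nucleus ATAC-seq, in which a transposase inserts adaptors into open chromatin of isolated nuclei. A peak was counted when its centre lay within 1 kb of annotated starts of protein-coding genes on both strands, on an autosome. This rule gave 1414 peaks of the 54570 autosomal peaks and of 55326 in all, or 2.59% of the autosomal peaks (95% exact binomial confidence interval 2.46 to 2.73%). They were 8.71% (8.28 to 9.15%) of the 16237 peaks at starts of protein-coding genes, of which 14674 lay at the start of a single gene and 149 at starts of several genes on the same strand. The 1414 peaks belonged to 1014 loci, each a distinct set of genes, with 2060 genes in all.

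The nuclei came from wild-type C57Bl/6Nl males, 1 library at 7 weeks and 1 at 9 weeks of age, and both libraries went into the same list. The list gives a position for each peak and no height, count or value per library, so that replicates could not be compared and no difference could be tested. The intervals are 95% exact binomial intervals, or those of the order statistics for medians, and cover counting error only, and a gene without a peak is a gene at which none was called at a depth that the list does not state. All 10 markers of DNs looked for had a promoter peak. Among them were *Th*, the rate-limiting enzyme of dopamine synthesis, *Slc6a3*, the dopamine transporter, and *Pitx3*, a transcription factor of these neurons. Of 11 markers of oligodendrocytes, astrocytes and microglia, 2 had a promoter peak. Over all autosomal protein-coding genes the share was 57.2%. A sample of mouse embryonic stem cells in the same series was not analysed here.

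In a bidirectional promoter, 2 genes are read away from each other from starts that lie close together, so that a single nucleosome-free stretch serves both. Such promoters are common in mammalian genomes, are usually rich in CpG and poor in TATA boxes, and often drive genes of DNA repair, mitochondria and other functions that all cells need.

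The stretches between the opposite starts of 4 loci with a peak show what such a region holds. *Gtf2f1*/*Gm17949* and *1110059E24Rik*/*Abhd17b* were picked because their peaks matched many motifs, though other peaks matched as many as that of the latter. *Klc4*/*Mrpl2* and *Osgep*/*Apex1* were added after their values were seen, as loci of the mitochondrial ribosome and DNA repair lists. Each is given on the plus strand of GRCm38, from the base after the minus-strand gene's start to the base before the plus-strand gene's start, without any annotated exon. Capitals mark a match to 1 of the 13 motifs searched.
Gtf2f1/Gm17949: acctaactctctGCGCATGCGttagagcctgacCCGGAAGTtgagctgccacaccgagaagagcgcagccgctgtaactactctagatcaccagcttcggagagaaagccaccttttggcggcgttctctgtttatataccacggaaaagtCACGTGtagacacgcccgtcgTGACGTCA
1110059E24Rik/Abhd17b: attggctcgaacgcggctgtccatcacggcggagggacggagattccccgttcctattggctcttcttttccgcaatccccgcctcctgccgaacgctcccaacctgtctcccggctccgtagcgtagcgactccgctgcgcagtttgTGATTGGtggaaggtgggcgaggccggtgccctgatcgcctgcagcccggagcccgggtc
Klc4/Mrpl2: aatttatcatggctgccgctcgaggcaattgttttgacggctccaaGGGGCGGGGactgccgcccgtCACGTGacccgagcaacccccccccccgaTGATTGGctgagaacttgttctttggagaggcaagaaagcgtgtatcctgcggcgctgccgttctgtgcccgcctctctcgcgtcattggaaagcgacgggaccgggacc
Osgep/Apex1: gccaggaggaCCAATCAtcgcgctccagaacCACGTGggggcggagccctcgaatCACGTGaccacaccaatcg
The *Gtf2f1*/*Gm17949* stretch (chr17:57011289-57011468) held, from its left end, an NRF1, an ETS, an E-box and a CRE match. The 1110059E24Rik/Abhd17b stretch (chr19:21652977-21653184) held an NF-Y match on the minus strand. At *Klc4*/*Mrpl2* (chr17:46646023-46646228), an SP/KLF, an E-box and an NF-Y match lay within 206 bp. At *Osgep*/*Apex1* (chr14:50924894-50924967), an NF-Y match was followed by a pair of E-boxes within 74 bp. *Apex1* encodes an endonuclease that cuts DNA at sites that have lost a base.

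Of the 1014 loci, 813 were arranged head to head, with the plus-strand start to the right of the minus-strand start (80.2%, 77.6 to 82.6%). At the other 201 loci the 5′ ends of the genes overlapped. The median distance between the closest opposite starts was 130 bp at head-to-head loci, with quartiles of 69 and 263 bp, and 196 bp at overlapping ones, with quartiles of 71 and 403 bp. The shortest distances were found at *Nsa2*/*Gfm2*, which start from the same base, and at *Arfrp1*/*Zgpat*, *Bag4*/*Lsm1* and *Dcun1d3*/*Lyrm1*, whose starts are 1 bp apart. The longest were 1766 bp at *Gpr108*/*Trip10* and 1756 bp at *Tmem79*/*Smg5*. Just inside the 1 kb limit, with the farther start 900 to 1000 bp from the peak centre, lay 67 peaks, and 52 lay just outside it, at 1000 to 1100 bp.

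**Figure D1:**
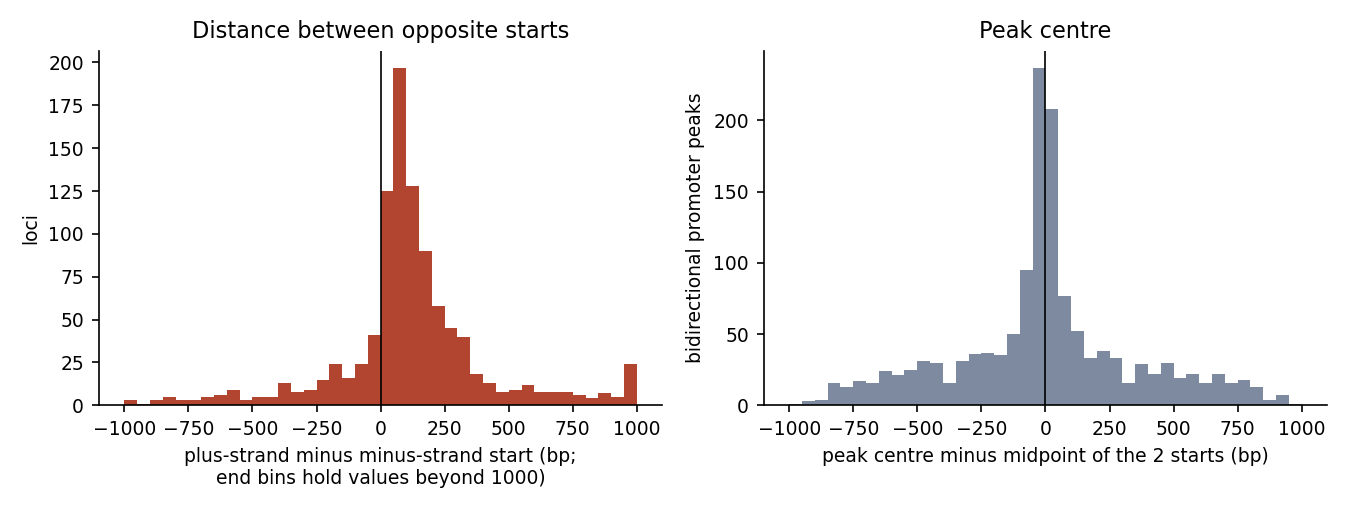
Left, number of loci by the distance in bp from the minus-strand start to the plus-strand start, in 50-bp bins, with loci beyond 1000 bp in the last bins. Right, number of bidirectional promoter peaks by the distance in bp from the midpoint of the closest opposite starts to the peak centre. Most of the 1014 loci lie to the right of 0, where the closest opposite starts are head to head, though other transcripts of the genes can overlap. The peak centres gather at 0 with a tail on each side.

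The peak nearest to the middle of a locus lay 62.5 bp from the midpoint of the closest opposite starts at the median (54.5 to 70 bp), with quartiles of 23 and 184 bp. At 64.7% of the loci (656 of 1014), a peak covered both starts. A single peak per locus was found at 652 loci, 2 peaks at 325, 3 peaks at 36 and 4 peaks at 1 locus. The share of loci with more than 1 peak was 26.5% (21.8 to 31.7%) where the starts lay up to 100 bp apart and 47.4% (39.2 to 55.6%) where they lay 301 to 1000 bp apart. At 1001 to 2000 bp it was 17.6% (3.8 to 43.4%) of 17 loci, and at overlapping loci 37.8% (31.1 to 44.9%). Between the classes up to 100 bp and 301 to 1000 bp, the offset of the nearest peak centre from the midpoint rose from a median of 30 bp to 179 bp. Most peaks, 1366, had starts of 2 genes nearby, 47 had 3 and 1 had 4. The peak with 4 genes (chr12:102757624-102758123) lay between *Gon7* and *Ubr7*, whose starts are 164 bp apart, and also served the gene models *Gm20604* and *Gm28051*.

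Genes with an opposite-strand start within 2 kb had a promoter peak more often than other genes. A peak was found at 2224 of 2516 genes with such a neighbour (88.4%, 87.1 to 89.6%) and at 9672 of 18291 genes without it (52.9%, 52.2 to 53.6%), beside 57.2% of all 20807 autosomal protein-coding genes. Starts of genes with a neighbour were more often rich in CpG, by a GC content above 50% and a ratio of observed to expected CpG of at least 0.6 over 500 bp, at 77% against 44.8%. Within the CpG-rich genes the shares with a peak were 94.2% (93.1 to 95.2%) and 86.1% (85.3 to 86.8%). Within the other genes they were 68.9% (64.9 to 72.6%) and 25.9% (25 to 26.8%). The same order held in 3 equal classes of genes by GC content of the start, with 75.2% against 19.6% in the lowest class, 86.2% against 59.4% in the middle and 94.4% against 84.6% in the highest. A peak of the neighbour can count for both genes here, so that the share per gene is not a share of independent starts. The part of this in the difference was not tested.

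**Figure D2:**
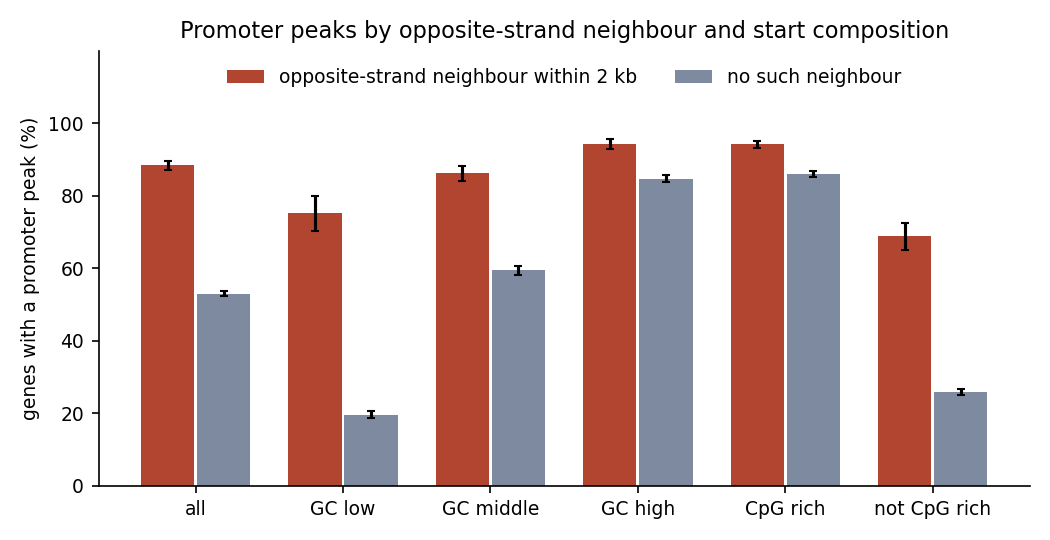
Share in % of autosomal protein-coding genes with a peak centre within 1 kb of a start, for genes with and without an opposite-strand start within 2 kb, in all genes, in 3 equal classes by GC content of the 500 bp at the start, and in CpG-rich and other genes. Bars are shares and error bars 95% exact binomial intervals. Genes with a neighbour stand higher in each class, by the most in the lowest GC class (75.2% against 19.6%).

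Taken as pairs, both genes had a promoter peak at 86.2% (84.2 to 88.1%) of the 1287 opposite-strand pairs with starts within 2 kb, 1 gene only at 3.89% (2.9 to 5.09%) and neither at 9.87% (8.29 to 11.6%). For head-to-head pairs up to 100 bp apart, both had a peak at 91.6% and neither at 7.52%, and for those 301 to 1000 bp apart the values were 88.9% and 10%. With starts this close, a peak within 1 kb of 1 start mostly counts for the other gene as well. The rule thus leaves few of these pairs with a peak at 1 gene only. Pairs farther apart are less bound by the rule and had other shares, and the part of the rule in this was not tested. At 1001 to 2000 bp both genes had a peak at 58.6% (49.6 to 67.2%) of 128 pairs and 1 gene only at 21.1% (14.4 to 29.2%). At 5001 to 10000 bp the shares were 36.4% and 33.6% of 470 pairs. Pairs beyond 2 kb were counted only where no protein-coding start lay between theirs and neither gene had an opposite-strand start within 2 kb. Closer pairs had no such filter, so that the sets of genes differ too. A single peak could serve both genes only up to 2 kb by the rule, and it did so at 91.4% of the pairs up to 100 bp apart and at 13.3% of those 1001 to 2000 bp apart.

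**Figure D3:**
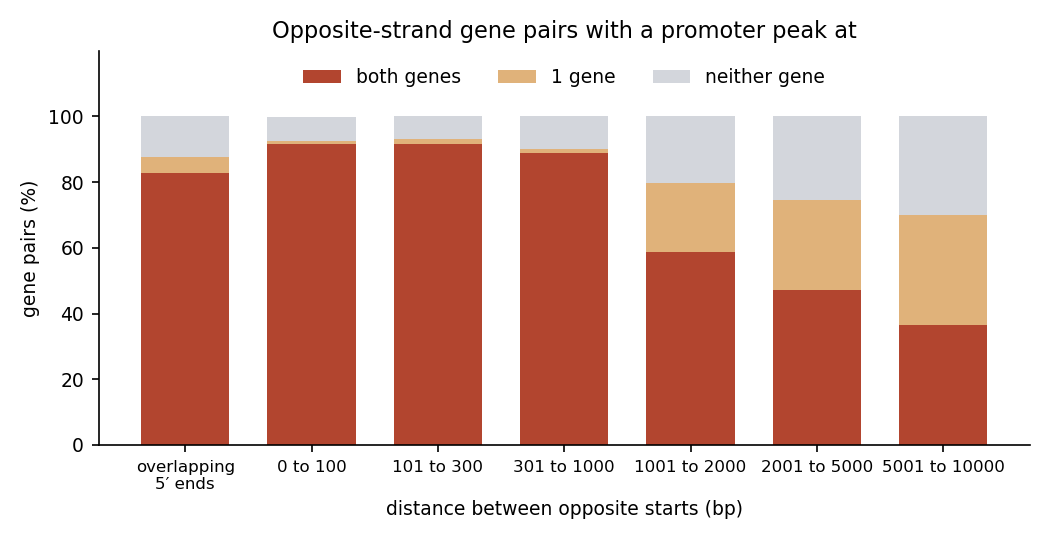
Share in % of opposite-strand gene pairs with a promoter peak at both genes, at 1 gene or at neither, by the distance in bp between their closest starts. Beyond 2000 bp, only pairs with no protein-coding start between them and no opposite-strand start within 2 kb of either gene are shown. Pairs with a peak at 1 gene are rare up to 1000 bp (0.836% at 0 to 100 bp and 1.11% at 301 to 1000 bp) and make up 33.6% at 5001 to 10000 bp. By the 1 kb rule, a peak near close starts mostly counts for both genes.

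In base composition, bidirectional promoter peaks had the same mean GC content as single-gene promoter peaks, 61.9% ± 7.3 (SD, n = 1414 peaks) against 61.9% ± 8.49 (SD, n = 14674). They held more CpG for that content. The median ratio of observed to expected CpG was 0.812 (0.799 to 0.823) against 0.749 (0.744 to 0.754), and 82% (79.9 to 84%) against 69% (68.3 to 69.8%) were CpG rich, beside 4.39% of peaks away from gene starts. A TATA box, searched as TATAAA beginning 20 to 40 bp before the outermost start of the gene, was found at 4 of 2060 genes with a bidirectional promoter peak (0.194%, 0.0529 to 0.496%). It was found at 0.982% (0.795 to 1.2%) of genes with a promoter peak and no such neighbour, and at 4.76% (4.32 to 5.23%) of genes with neither.

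Short words that transcription factors of promoters recognise were searched on both strands of each peak, and no word contains another. ETS factors are activators of many housekeeping genes, and their word CCGGAAGT was found in 12.3% (10.6 to 14.1%) of bidirectional promoter peaks, in 6.25% (5.86 to 6.65%) of single-gene peaks, in 2.54% of all autosomal peaks and in 5.99% of the 500-bp windows at all gene starts. YY1, a zinc finger factor of promoters, has the word AAGATGGCG, found in 6.29% against 3.19% of single-gene peaks. NF-Y binds the CCAAT box, searched as CCAATCA and found in 14.7% against 9.12%. NRF1, an activator of nuclear genes for mitochondria, has GCGCATGCG, found in 4.67% against 2.97%, and the cAMP response element (CRE) TGACGTCA was found in 4.67% against 2.96%. For each of these 5 the intervals of the groups did not overlap over the whole peak. In the central 200 bp of the peaks, those of CRE did (2.64 to 4.64% against 2.26 to 2.77%). With peaks split into classes by GC content, which hold fewer peaks, the intervals overlapped in at least 1 class for each of the 5. The GC box GGGGCGGGG of SP and KLF factors, in 23.1% against 23.4%, and the E-box CACGTG, in 13.4% against 12.2%, had overlapping intervals. So had ACTACAATT of ZNF143, in 1.06% against 0.6%, TTTGGCGC of E2F, in 1.41% against 1.24%, GTTNCCATG of RFX factors, in 2.26% against 2.1%, and TGTTTAC of forkhead factors, in 2.97% against 3.7%. The AP-1 word TGANTCA was rarer, in 4.53% (3.5 to 5.74%) against 7.02% (6.61 to 7.44%). AGGGGGCGC, a part of the CTCF motif, was found in 2.55% against 3.54%. At least 1 of 7 promoter words (NRF1, ETS, NF-Y, SP/KLF, CRE, YY1 and ZNF143) was present in 51% (48.3 to 53.6%) of bidirectional and in 40.1% (39.4 to 40.9%) of single-gene peaks. At least 2 were present in 14.1% and 7.58%.

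The words differed in where they lay. In the 965 peaks at head-to-head loci with starts at least 50 bp apart, NF-Y matches occurred 11.7 times per 10 kb of peak sequence between the starts and 1.33 times outside them, with 152 and 47 matches. GC boxes occurred 15.1 and 4.54 times, NRF1 words 4 and 0.964 times and ETS words 4.08 and 2.04 times per 10 kb. YY1 words lay the other way, with 5 matches between the starts and 56 outside, or 0.385 and 1.59 per 10 kb. Of these 56, 47 were on the strand of the gene they lay in and 9 on the opposite strand. At the 14674 single-gene peaks, NF-Y words occurred 3.53 times per 10 kb upstream of the nearest start and 0.814 times downstream. YY1 words occurred 0.316 and 0.968 times there, with 308 of the downstream matches on the strand of the gene and 62 on the other. The placement of NF-Y and YY1 words was thus of the same kind at both sorts of promoter. Forkhead, E2F and RFX words, with few matches at opposite starts, were denser outside those starts, but denser upstream than downstream of single starts. The rest of the words kept the same order at both. The density of NF-Y words between opposite starts was above that upstream of single starts, where the sequence counted reaches farther from a start. Matches are descriptions of sequence and say nothing of whether a factor was bound.

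**Figure D4:**
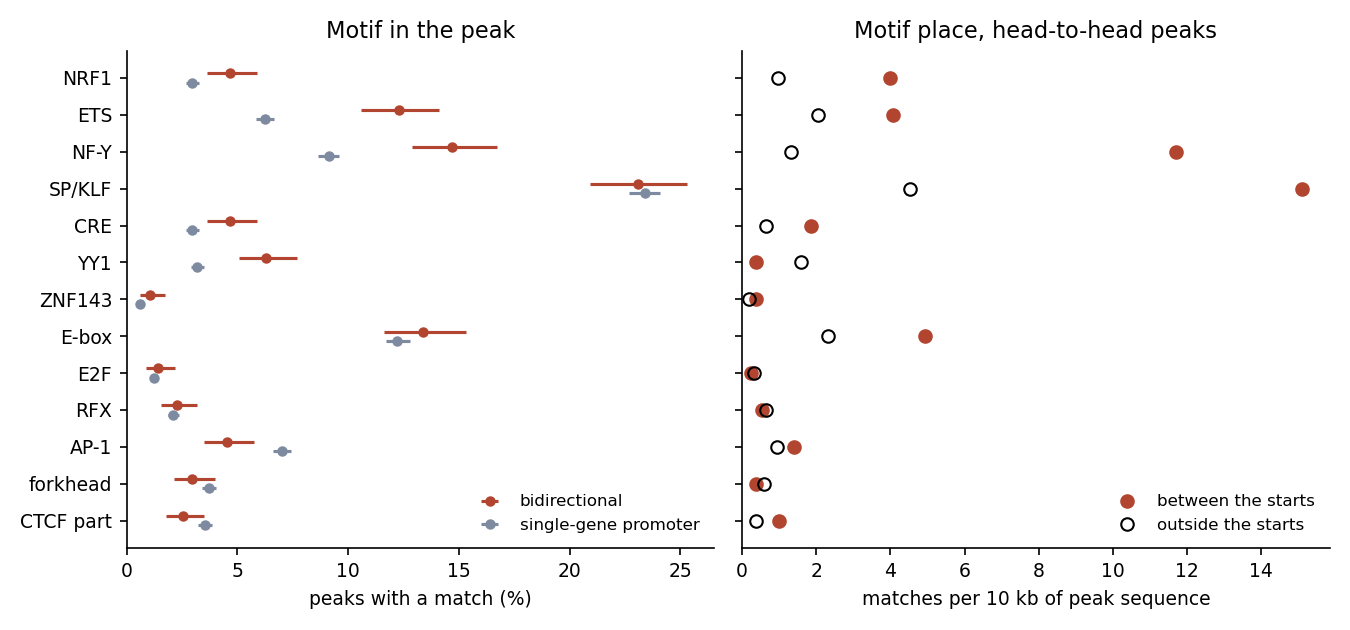
Left, share in % of bidirectional and single-gene promoter peaks with a match to each word, with 95% exact binomial intervals. Right, matches per 10 kb of peak sequence between and outside the closest opposite starts in the 965 peaks at head-to-head loci at least 50 bp apart. ETS (12.3%), NF-Y (14.7%) and YY1 (6.29%) stand apart from single-gene peaks on the left, and NF-Y (11.7 against 1.33) and SP/KLF (15.1 against 4.54) lie mostly between the starts on the right.

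Of 22 pairs known to share a promoter that were looked for, 18 had opposite starts within 2 kb in this annotation, and all 18 had a shared peak, 1 at 11 pairs and 2 at 7. Their start distances ran from 21 to 1035 bp, and the GC content of the peak nearest the midpoint from 54.2 to 74.4%. *Atm*, the kinase that signals DNA breaks, and *Npat*, an activator of histone genes, start 307 bp apart and shared 2 peaks, the nearer at chr9:53536586-53537085. *Brca1*, which acts in repair of DNA breaks, and *Nbr1*, an autophagy receptor, start 270 bp apart and shared 2 peaks. The mitochondrial chaperonins *Hspd1* and *Hspe1* start 108 bp apart, also with 2 peaks, the nearer with a GC content of 74.4% and a GC box. *Trp53*, the tumour suppressor, and *Wrap53* start 1035 bp apart and shared 1 peak, 475 bp from the midpoint.

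Among 31 genes of dopamine synthesis, transport, signalling and DN identity, 28 had a promoter peak (90.3%, 74.2 to 98%). Of all autosomal protein-coding genes, 57.2% had a promoter peak. Among 22 genes linked to Parkinson's disease, all had a promoter peak and 4 had a bidirectional one (18.2%, 5.19 to 40.3%). That interval includes the 9.90% of all autosomal protein-coding genes with a bidirectional promoter peak. Values are given for *Vps35* and *Htra2*. *Vps35*, which sorts proteins from endosomes, and *Orc6*, a subunit of the complex that marks origins of replication, had 2 shared peaks. Their closest opposite starts lie 11 bp apart, in overlapping order. The closest opposite starts of *Htra2*, a mitochondrial protease, and *Aup1* lie 50 bp apart, also in overlapping order, with 2 shared peaks. The nearer of these, 7.5 bp from the midpoint, matched the SP/KLF, CRE and YY1 words.

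Genes with a bidirectional promoter peak were shorter than other genes with a promoter peak, with a median length of 18.5 kb against 28.4 kb for genes with a promoter peak and no opposite-strand neighbour, and 17.6 kb for all genes. Of the 2060, 23 were longer than 300 kb (1.12%, 0.709 to 1.67%), against 4.45% (4.04 to 4.88%) of the comparison genes. The longest was *Dlg2*, a scaffold protein of synapses, of 1973 kb. The start of 1 of its transcripts lies 1230 bp from that of *Tmem126b*, a factor for assembly of respiratory complex I, and the shared peak (chr7:90476401-90476900) was 34.5 bp from the midpoint. *Galntl6* was 1139 kb long, *Sugct* 838 kb and *Fars2* 609 kb. *Fars2* encodes the mitochondrial phenylalanine-tRNA synthetase, and its partner *Lyrm4* acts in the making of iron-sulphur clusters.

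By function, shares differed widely around the 9.90% of all autosomal protein-coding genes that had a bidirectional promoter peak. Among 78 genes of the mitochondrial ribosome, 34 had an opposite-strand neighbour and 31 a bidirectional promoter peak (39.7%, 28.8 to 51.5%). Examples are *Mrpl10*/*Lrrc46*, with starts 153 bp apart, *Mrpl14*/*Tmem63b*, 63 bp apart, and *Mrpl46* and *Mrps11*, both of this ribosome, 30 bp apart. *Mrpl34* and *Mrps2* had a peak that was not shared, with starts 1304 and 1734 bp from those of their neighbours, and *Mrpl43* had none. Among 84 genes of DNA repair, 31 had a bidirectional peak (36.9%, 26.6 to 48.1%), with a median start distance of 117 bp. They include the mismatch repair genes *Msh3*, *Pms1* and *Pms2*, and *Xrcc1*, *Xrcc3*, *Xrcc4* and *Xrcc6* of strand break repair. Among 91 genes of the respiratory chain and its assembly, 29 had one (31.9%, 22.5 to 42.5%). *Sdhd*, a subunit of complex II, lay 98 bp from *Timm8b*, of mitochondrial protein import. *Ndufs1*, the largest subunit of complex I, lay 3 bp from *Eef1b2*, and *Ndufa7* lay 10 bp from *Rps28*, of the cytosolic ribosome. Among RNA polymerase subunits, 10 of 27 had one (37%, 19.4 to 57.6%), among tRNA synthetases 10 of 36 (27.8%, 14.2 to 45.2%), where *Hars* and *Hars2*, the cytosolic and the mitochondrial histidine enzyme, lay 26 bp apart, and among mitochondrial import genes 6 of 23 (26.1%, 10.2 to 48.4%).

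Lists with lower shares were cilia (12 of 49, 24.5%, 13.3 to 38.9%, among them *Cep290* and *Ift140*), Mediator (5 of 28, 17.9%, 6.06 to 36.9%), the cytosolic ribosome (13 of 76, 17.1%, 9.43 to 27.5%) and the proteasome (6 of 38, 15.8%, 6.02 to 31.3%). The intervals of the last 3 include the 9.90% of all genes. Genes named *Zfp*, mostly zinc finger factors, had such a peak at 24 of 385 (6.23%, 4.03 to 9.13%). Of 49 synaptic genes 3 had one (6.12%), *Dlg2*, *Dlg4* and the adhesion gene *Nlgn2*, with starts 740 to 1534 bp from those of their neighbours. This share depended on the setting, at 0% with centres within 500 bp of a start and 12.2% (4.63 to 24.8%) with 1 start per gene. Of 123 ion channel genes 1 had one, *Kcnab2*, a subunit of potassium channels, 271 bp from the cilia gene *Nphp4*. Among genes with keratin names the single one was *Krtcap2*, which is not a keratin, and among vomeronasal receptors it was *Vmn1r4*, 90 bp from *Nt5c3*. None of 1086 olfactory receptor genes had such a peak, with an interval that reaches up to 0.339%. In the 4 lists last named, few genes have an opposite-strand start within 2 kb in the first place (1 to 3 genes each).

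**Figure D5:**
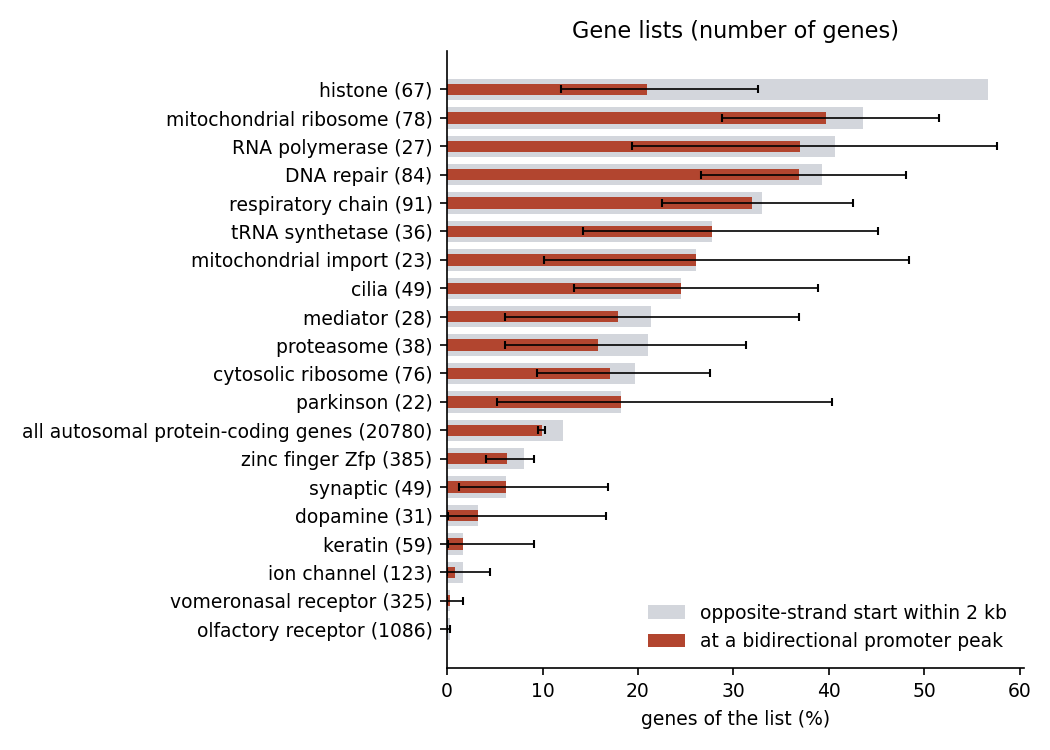
Share in % of the genes of each list with an opposite-strand start within 2 kb (wide grey bars) and at a bidirectional promoter peak (narrow bars, with 95% exact binomial intervals), with the number of genes in brackets. The red bars nearly fill the grey ones in most lists, but histone genes reach 20.9% of 56.7%.

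Histone genes stood apart from the other lists, since 38 of 67 had an opposite-strand neighbour but 14 a shared peak (20.9%, 11.9 to 32.6%). Genes of histones H2A and H2B often lie head to head in the clusters, and *Hist1h2ac*/*Hist1h2bc*, 251 bp apart, and *Hist1h2ae*/*Hist1h2bg*, 176 bp apart, shared a peak. Of the 38, 16 had no promoter peak at all. Some histone genes are near-identical copies of each other, so that the calls at them are uncertain. Of 50-base stretches taken every 10 bp over the 500 bp at a pair, none was unique in the genome at *Hist1h2ap*/*Hist1h2br* and *Hist1h2bq*/*Hist1h2ao*, 80.4% at *Hist1h2an*/*Hist1h2bp* and 93.5% at *Hist2h2ac*/*Hist2h2be*, all without a peak. The part of repeated sequence in these calls was not tested.

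Of 728 head-to-head pairs with starts up to 300 bp apart, 52 had no promoter peak at either gene. Their sequence was less rich in CpG, with 65.4% (50.9 to 78%) CpG rich against 91.1% (88.7 to 93.2%) of the 676 pairs with a peak. All sampled stretches were unique at 71.2% (56.9 to 82.9%) of the pairs without a peak and at 93% (90.9 to 94.8%) of those with 1. Genes used by few cell types were among them, such as *Abcg5*/*Abcg8*, the sterol transporter of liver and gut, 110 bp apart, and *Col4a4*/*Col4a3*, collagens of basement membranes, 127 bp apart. At 23 of the 52 the sequence was both CpG rich and unique throughout, with the nearest peak of any kind 4.3 to 68.3 kb away (median 21.1 kb). These include genes that most cells need: *Alyref*/*Anapc11*, of mRNA export and of the complex that drives cells out of mitosis, *Psma7*/*Ss18l1* and *Psmc5*/*Ftsj3*, both with a subunit of the proteasome, and *Mrpl43*/*Twnk*, the latter the helicase of mitochondrial DNA. Pairs of this kind with no called peak are shown by 2 of the stretches between their starts, the first poor in CpG and the second rich in it.
Abcg5/Abcg8: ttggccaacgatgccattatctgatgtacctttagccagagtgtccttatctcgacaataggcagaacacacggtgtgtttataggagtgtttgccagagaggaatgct
Alyref/Anapc11: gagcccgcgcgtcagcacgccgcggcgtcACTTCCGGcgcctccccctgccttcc
The *Abcg5*/*Abcg8* stretch (chr17:84683012-84683120) has a GC content of 45.9% and no motif match. The *Alyref*/*Anapc11* stretch (chr11:120598366-120598420) has a GC content of 78.2% and an ETS match on the minus strand, and the nearest peak lay 68.3 kb away.

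In their surroundings, bidirectional and single-gene promoter peaks were alike in some measures and not in others. Another peak lay within 5 kb of 66.2% (63.7 to 68.7%) and 67.2% (66.5 to 68%) of them. Within 50 kb, the median number of starts of protein-coding genes, counted once per gene, was 4 for bidirectional and 2 for single-gene peaks. Part of this is set by the rule, which gives a bidirectional peak at least 2 genes within 1 kb and a single-gene peak 1. A lncRNA start lay within 1 kb of 1.77% (1.15 to 2.6%) and 13% (12.4 to 13.5%). Exons covered a median of 56.4% and 34% of the peak. A bidirectional peak can hold exons of genes on both strands, but 46.5% of them covered both closest opposite starts and 27.9% covered neither. The part of this in the difference was not tested. Over the autosomes, members ranged from 29 on chromosome 18 to 140 on chromosome 11. As a share of promoter peaks they ranged from 4.84% (3.45 to 6.58%) on chromosome 6 to 11.2% (8.67 to 14.2%) on chromosome 16.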

How the data were processed

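Nuclei of VTA from male mice (2 libraries, aged 7 and 9 weeks) were profiled by snATAC-seq. The authors mapped reads to mm10 with Cell Ranger, clustered nuclei and called peaks with ArchR, and deposited 1 pooled list that holds the position of each peak (chromosome, start and end 500 bp later) and no other value. The study also describes a filter on peaks seen in few nuclei, and whether it was applied to this list is not given in the sources used here. Starts were read as counted from 0. If they are counted from 1, printed starts are 1 bp too high and widths 1 bp too low.

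Transcript starts came from the basic set of GENCODE M21, and sequence from GRCm38, whose chromosomes have the mm10 sequence. Distances were taken between the closest opposite starts, a locus was a distinct set of genes, and CpG was computed over the peak. Genes named were known pairs, dopamine and Parkinson genes with a neighbour, extremes of distance, length, gene number and motif number, and list members in alphabetical order, with further examples chosen after their values were seen. Members and lists were chosen with earlier results of these data known. Scripts were tested on simulated data. Python 3.11.15, numpy 2.4.6, pandas 2.3.3, scipy 1.17.1 and pysam 0.24.0 were used. Values of some genes are not reported here.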

Additional observations from a re-analysis of the deposited data

Results flagged for a closer look

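The X chromosome was left out by the choice of autosomes and was looked at apart. It held 27 bidirectional promoter peaks, 6.18% (4.11 to 8.86%) of its 437 promoter peaks, within the range of 4.84 to 11.2% over the autosomes. It is listed here because it lies outside the peaks that the comparisons used.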

How the results depend on the processing

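No paired analysis was possible because both DN libraries are pooled in 1 list, and for the same reason no replicate could be left out. In the main setting, the median distance between closest opposite starts over all loci was 138 bp. The median offset of the peak centre from the midpoint, over all 1414 peaks, was 147 bp. The start distances and offsets below are to be set beside these 2 values. With centres within 500 bp of a start, 938 peaks remained, 85.9% of genes with and 51% without an opposite-strand neighbour had a peak, the median start distance was 118 bp and the offset 52.5 bp, mean GC 63.3%, CpG ratio 0.846, and pairs with a peak at both genes or 1 gene 81.4% and 8.55%. Within 2 kb, the shares of genes were 89.9% and 54.5%, the distance 162 bp, the offset 283 bp, GC 60.7% and the CpG ratio 0.775. With any 1 bp of the peak within 1 kb the offset was 184 bp and GC 61.5%. With 1 start per gene, the outermost, the shares of genes were 86.8% and 49.6%, the head-to-head share fell to 62.6% and the distance was 183 bp. Without gene models, genes without a neighbour were at 56.4% and the head-to-head share was 82.7%. Counting each locus once gave a mean GC of 63%. In the low, middle and high GC classes the shares of genes were 75.2, 86.2 and 94.4% with and 19.6, 59.4 and 84.6% without a neighbour, and 91.1% for a neighbour within 1 kb. Chosen after seeing the data, genes with 1 annotated start gave 86.6% and 46.6%, and leaving out receptor genes (*Olfr* and *Vmn*) gave 57.3% without a neighbour. Another peak lay within 2 kb of 61.3% and within 10 kb of 74%. Genes with a neighbour stayed above those without wherever both shares were computed. Counting starts from 1 left the same 1414 peaks. In the central 200 bp, the shares of 11 of the 13 motifs left their interval. The list gives no depth, so that weak regions cannot be told from closed ones.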
